A study of Mus musculus with 2 samples.

Results

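The region described here is the stretch of mouse chromosome 12 that lies 100 to 500 kb from Fos on the side of lower coordinates, called the lower flank below. Its members are the 400 positions from 86314834 to 86713834 (mm9) of a table of contacts with the Fos promoter, out of 2001 positions in that table and 2202 in the series, and they were chosen by coordinate alone. The contacts were measured by circular chromosome conformation capture with sequencing (4C-seq) in 1 library of primary cortical neurons, from embryos of stage E15.5 that had been in culture for 10 to 11 days. The series also holds 1 library of hippocampal tissue from mice aged 3 months, whose table reaches 100 kb to each side of its midpoint and has 0 positions in the flank. The labels name no strain, genotype or stimulation, and each library is a bulk preparation of many cells, so that contact in more cells and more frequent contact per cell cannot be told apart. With 1 library, no value below has a replicate error and no test was run.

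In 4C-seq, chromatin is cross-linked, cut, ligated and amplified outward from 1 chosen site, the viewpoint, so that the signal at another position reflects how often it was ligated to that site. Contact usually falls with distance from the viewpoint, and distant regions that lie near it in the folded chromosome stand out above their surroundings. Fos is an immediate-early gene, switched on by neuronal activity within minutes, and its promoter is known to work with enhancers spread over its neighbourhood. The table used here gives the contacts of the Fos promoter.

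Each value in the flank is a contact with the same piece of DNA, so the promoter at the viewpoint is the sequence shared by all of them. The 250 bases before the Fos start site are given here from RefSeq (GRCm38.p6, chr12:85473640-85473889, plus strand), with capitals on the motifs searched for on both strands.
Fos promoter: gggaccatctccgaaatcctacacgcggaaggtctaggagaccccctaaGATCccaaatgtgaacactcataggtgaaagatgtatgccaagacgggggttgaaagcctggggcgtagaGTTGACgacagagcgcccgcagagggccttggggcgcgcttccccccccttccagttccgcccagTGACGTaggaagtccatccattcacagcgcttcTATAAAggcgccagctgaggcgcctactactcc
In order from the 5′ end the capitals mark GATC, the site of the second enzyme named in the labels (DpnII), GTTGAC, a site of the first enzyme if HindII, as the labels spell it, is the enzyme that was used, TGACGT, the core of a cyclic AMP response element, and TATAAA, the TATA box. HindII also cuts GTCGAC and cuts GTTAAC, which were searched for as well, and GTCAAC is the first form read from the other strand. GATC starts 201 bases before the start site, and the HindII site lies between it and the cyclic AMP response element. Among 32851 RefSeq promoters cut to the same 250 bases, 41.9% hold GATC, 9.14% a HindII site, 6.47% TGACGT and 12.4% TATAAA. None of these motifs overlaps another. Whether these sites bound the amplified fragment is not given in the sources used here, and the contact table is in mm9, so the 2 sets of coordinates cannot be compared.

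The label of the region calls it gene-dense, which the contact table cannot show because it names no genes. In RefSeq gene order, the 16 nearest protein-coding genes on the lower side of Fos are the 16 listed for this report. Nearest is Tmed10, a receptor for cargo leaving the endoplasmic reticulum, then Nek9, a kinase of mitosis, Zc2hc1c, Acyp1, which cleaves acylphosphates, Mlh3, a DNA mismatch repair protein needed for meiotic crossing-over, and Eif2b2, part of the exchange factor for the translation factor eIF2. They are followed by Pgf, a ligand of VEGF receptor 1, Rps6kl1, Dlst, a mitochondrial enzyme of the citric acid cycle, Prox2, a homeobox factor, and Ylpm1. Fcf1, which acts in ribosome assembly, Arel1, a ubiquitin ligase, Ltbp2, an extracellular matrix protein, Isca2, which builds mitochondrial iron-sulfur clusters, and Npc2, a lysosomal cholesterol carrier, complete the list. On the higher side the first 3 are Jdp2, Batf and Flvcr2. No mm9 gene positions were used, and the regions below are therefore given by coordinate alone.

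The flank as a whole had a median level of contact close to that of the table. The signal is on a scale where the highest 2 kb window of the library equals 1. In 10 kb windows, the main scale used here, the 400 positions ranged from 0.0552 to 0.213, with a median of 0.112, against a median of 0.114 over the 1991 positions of the table with a 10 kb value. Their mean on the log2 scale, turned back, corresponded to a signal of 0.114 (a geometric mean, as used below), and that of the mirrored flank, 400 positions 100 to 500 kb away on the higher side, to 0.117. The difference was -0.04 log2 (lower minus mirrored). Log2 differences and folds, here and below, are of the signal plus a constant of 0.00569. A fold is therefore not the exact ratio of the printed signals. Single positions had an SD of 0.33 in the lower and 0.29 in the mirrored flank, which is no error of these means. Positions 1 kb apart share most of a 10 kb window. In sets of 40 windows that do not overlap, taken at 10 different offsets, the difference ran from -0.05 to -0.02. Row by row at equal distance, 182 of 400 positions were higher on the lower side, and the Spearman correlation between the 2 profiles was 0.00363 over 400 pairs and 0.146 over 40 pairs 10 kb apart, all from the same library.

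Signal at the edges of the flank was somewhat below or near the table's median on both sides of the limits. The outermost member, at -500 kb from the midpoint of the table, had a 10 kb signal of 0.0943, and the position just outside, at -501 kb, 0.103. At the inner edge the values were 0.0973 at -101 kb and 0.120 at -100 kb, the latter outside.

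Within the flank, signal was lowest in the part farthest from Fos. The mean over 100 to 200 kb corresponded to 0.121 (SD 0.39 log2 over 100 positions), over 200 to 300 kb to 0.116 (0.22), over 300 to 400 kb to 0.118 (0.30) and over 400 to 500 kb to 0.10 (0.31). The nearer 200 kb exceeded the farther 200 kb by 0.12 log2, or 1.09-fold, and in the mirrored flank this difference was -0.01. In 10 kb windows, lower minus mirrored was -0.00, 0.05 and 0.08 log2 in the first 3 segments. From 400 to 500 kb the lower flank was 0.28 log2 below the mirrored one, or 1.22-fold. The mirrored mean there corresponded to 0.123, the highest of that flank, against 0.121, 0.112 and 0.112 in its first 3 segments. The table's median signal of 0.114 lay between the means of the 2 flanks at 400 to 500 kb. In 10 windows that do not overlap, the lower side had a mean log2 signal of -3.29 ± 0.39 and the mirrored side -2.97 ± 0.26 (SD over windows of 1 library). The segment was below its mirror at all 48 window sizes, by 0.23 to 0.51, and the segment at 300 to 400 kb was above its mirror at all 48, by 0.07 to 0.16. At the same sizes the difference ran from -0.24 to 0.04 at 100 to 200 kb and from -0.01 to 0.18 at 200 to 300 kb. The sizes reuse the same data. Without the positions within 10 kb of its lowest window, the segment at 400 to 500 kb was still below its mirror in 10 kb windows, with a difference of -0.21. Its signal reached 0.167 at most and fell to 0.0552 at -447 kb.

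**Figure D1:**
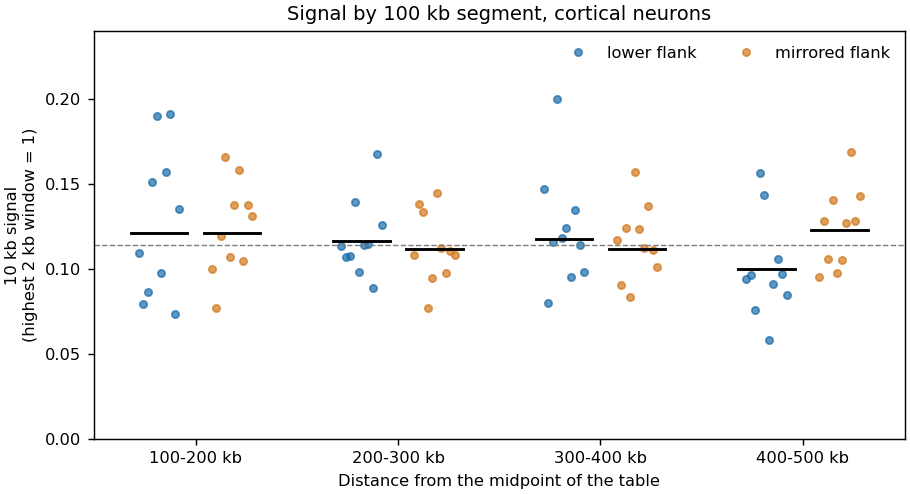
Signal in 10 kb windows (y axis, scaled to the top 2 kb window) by distance from the midpoint (x axis) in the lower flank (blue) and the mirrored flank (orange). Points are 10 windows per segment that do not overlap, black bars are the geometric means over all 100 positions and the dashed line is the table's median of 0.114. The bars differ most at 400 to 500 kb, 0.10 against 0.123, and the points of the 2 flanks overlap in every segment.

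The profile was made of separate rises and troughs. Counting as high any 10 kb window at least 0.5 log2 above the median of the whole table, 30 of 400 positions, or 7.50%, were high, where the share over the table was 5.37%. As low, by the same margin, counted 24 positions, or 6.0%, against 7.79% over the table. Both shares are near the background, and the mirrored flank had 19 high and 17 low positions. The 30 high positions formed 6 runs, at -471 to -469, -370 to -362, -222 to -217, -161 to -159, -132 to -124 and -113 to -112 kb. Of these, the runs at -370 to -362 kb and at -132 to -124 kb were the longest, with 9 positions each. The mirrored flank also had 6 high runs, the longest of 5 positions. The other 346 positions of the lower flank lay within 0.5 log2 of the median.

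**Figure D2:**
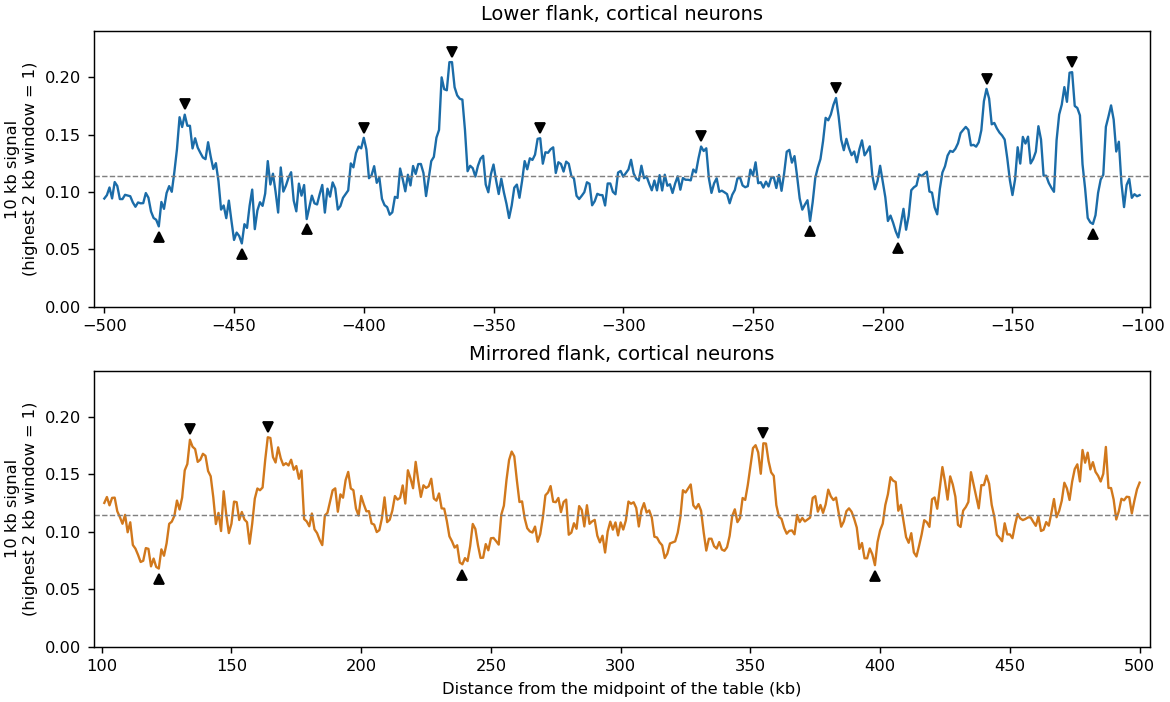
Signal in 10 kb windows (y axis) along the lower flank (top) and the mirrored flank (bottom) by distance from the midpoint of the table (x axis, kb). Triangles mark the 8 maxima and 6 minima named in the lower flank and 3 of each in the mirrored flank, and the dashed line is the table's median. The lower flank reaches 0.213 at -366 kb and falls to 0.0552 at -447 kb, while the mirrored flank stays between 0.0681 and 0.182.

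The highest contact of the flank in 10 kb windows lay at -366 kb, chr12:86443835-86453834 in mm9. Its 10 kb signal was 0.213, 1.82-fold the table's median with the constant added to both, and the authors' bounds were 0.0367 and 1.12. These bounds were read as the spread of values inside the window, not as an error of the mean. In the 2 kb window at this position the signal was 0.577, and 0.10% of the table's 2 kb windows were as high. It fell to 0.208 in 5 kb, 0.153 in 20 kb and 0.135 in 40 kb windows. Signal stayed above the table's median over 17 consecutive positions, from -374 to -358 kb.

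The second maximum lay at -127 kb, chr12:86682835-86692834, with a 10 kb signal of 0.204 (bounds 0.0249 and 1.44). In 5 kb windows it was the highest of the flank, at 0.288, and 0.20% of the table's 5 kb windows were as high. The third, at -160 kb (chr12:86649835-86659834), had 0.190 (bounds 0.0411 and 0.812) and was of another form. Its 2 kb signal of 0.159 was matched by 32.2% of the table's 2 kb windows, yet it stood among the highest 10% of the table at 42 of 48 window sizes, up to 49 kb. The fourth, at -218 kb (chr12:86591835-86601834), had 0.182 (bounds 0.0411 and 0.746) and was in the highest 10% at 12 sizes, 19 kb at most. At -469 kb (chr12:86340835-86350834) the signal was 0.167 (bounds 0.0334 and 0.761), and there it dropped to 0.106 in 40 kb windows, below the median of that size. The remaining 3 maxima, at -400, -332 and -270 kb, had 0.147, 0.147 and 0.140. Of the table's 10 kb windows, 13.1%, 13.3% and 18.6% were as high as these.

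The 10 highest windows of the table beyond 100 kb from the midpoint were taken at least 20 kb apart. Of these, 4 lay in the lower flank, including the first 3, while 3 lay in the mirrored flank and 3 at 500 to 1000 kb. Each flank holds 400 of the table's 1991 positions with a 10 kb value. The stretches at 500 to 1000 kb hold more than both flanks together. The counts were not tested against these shares. The mirrored flank peaked at 0.182, at 164 kb, followed by 0.180 and 0.177 at its next 2 maxima. Its bounds of 0.0412 and 0.748 at 164 kb overlap those of each maximum above. Such bounds were read as the spread inside a window, so their overlap does not show whether the maxima differ.

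**Figure D3:**
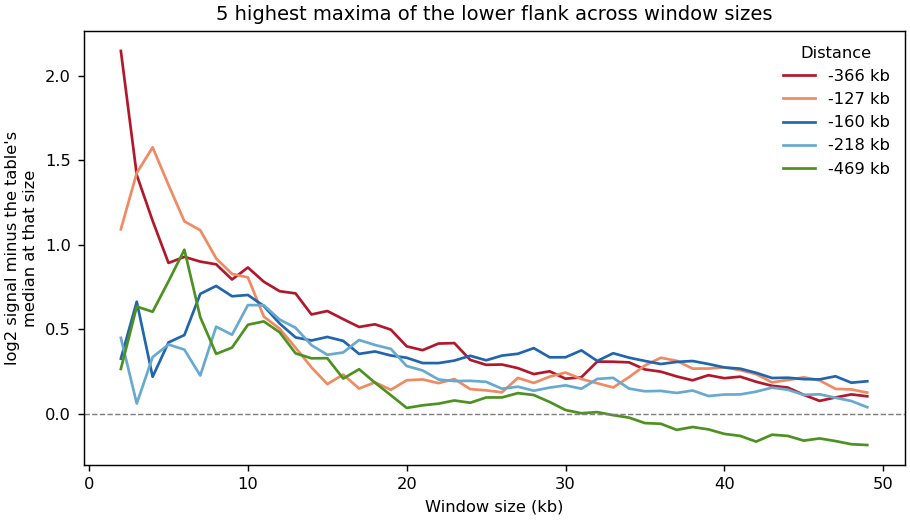
Log2 signal minus the table's median at each window size (y axis) against window size in kb (x axis) for the 5 highest maxima of the lower flank. The line for -366 kb starts at 2.15 in 2 kb windows and falls to 0.10 at 49 kb, that for -160 kb starts at 0.33 and keeps 0.19, and that for -469 kb ends below 0.

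In wide windows the strongest part of the flank was not at -366 kb but the stretch with the maxima at -160 and -127 kb. Between these maxima the 10 kb signal fell to 0.0974, at -150 kb, which is below the table's median. The 40 kb window centred at -145 kb, chr12:86649835-86689834, had a signal of 0.156 (bounds 0.0213 and 0.967), 0.42 log2 above the median of that size. It ranked 3 of 1961 windows in the table, where the highest, 0.159, lay at 31 kb from the midpoint. In 49 kb windows the highest of the flank was centred at -150 kb, at 0.156, and ranked 3 of 1952, after windows close to Fos of which the highest had 0.158 at 7 kb. The mirrored flank also had its highest 40 kb window near this distance, 0.146 at 149 kb, ranked 19. By bins of 20 kb, those from -120 to -180 kb corresponded to 0.142, 0.140 and 0.133, and the next one, -180 to -200 kb, to 0.0900. The bin with the highest mean was -360 to -380 kb, at 0.153.

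The windows that gave the highest signal at 20, 40 and 49 kb ended at 86689834, which is -125 kb, while that at 30 kb, centred at -158 kb, ended at 86671834. At -125 kb signal changed steeply. The 10 kb window that ends at this position had 0.191 and the one that starts after it 0.0736. That is a step of 1.31 log2, or 2.49-fold, with the constant added to both. It ranked 7 by size among 1981 such boundaries, in either direction. The next largest steps of the flank were at -223 kb, from 0.0747 up to 0.182 towards Fos, and at -455 kb, from 0.143 down to 0.0583. In the mirrored flank the largest was 2.19-fold. With 20 kb windows on both sides, the largest step of the flank lay at -455 kb (0.149 against 0.0745), followed by that at -175 kb (0.0852 against 0.169), which lies 10 kb beyond the far end of the 40 kb window at -145 kb. The boundaries were chosen as the largest of many, so their size is a description.

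**Figure D4:**
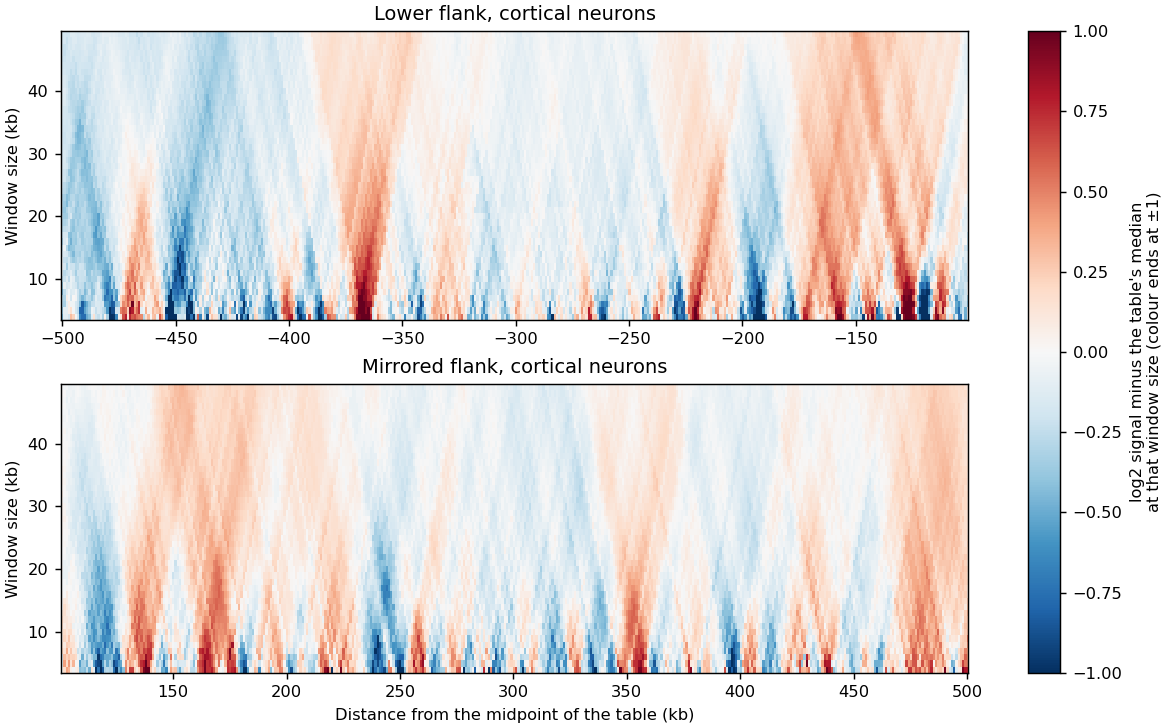
Log2 signal minus the table's median at the same window size (colour, red above and blue below) by distance from the midpoint (x axis, kb) and window size from 4 to 49 kb (y axis), for the lower flank (top) and the mirrored flank (bottom). Red at -366 kb is strongest in narrow windows, red around -150 kb extends to 49 kb windows, and blue around -430 and -489 kb marks the lowest windows of the lower flank at 49 and 30 kb.

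The lowest contact lay in 2 troughs. At -447 kb, chr12:86362835-86372834, the signal was 0.0552 (bounds 0.00784 and 0.269), 1.97-fold below the table's median with the constant added to both. Signal was under the median over 19 positions from -456 to -438 kb. At -194 kb, chr12:86615835-86625834, farther from Fos than the maxima at -160 and -127 kb, it was 0.0604 (bounds 0.00532 and 0.391), under the median over 14 positions. Of the table's 10 kb windows, 0.653% and 1.21% were as low. The other 4 minima, at -479, -119, -228 and -422 kb, had 0.0701, 0.0722, 0.0747 and 0.0764. In 20 kb windows at the 6 minima, in the order named, the signal was 0.0796, 0.0994, 0.0993, 0.163, 0.129 and 0.0952. Of the table's 20 kb windows, 3.13%, 20.6%, 20.5%, 98.5%, 76.6% and 14.8% were as low. In 2 kb windows the position at -447 kb had 0.134, and the others had 0.0391 or less. The minimum at -119 kb lies 8 positions from the maximum at -127 kb, on the near side of the step at -125 kb. In 49 kb windows the lowest signal of the lower flank was 0.0881, centred at -430 kb, and that of the mirrored flank 0.101.

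Some of these troughs touch windows listed at 0. In the lower flank 11 of 400 windows of 2 kb, or 2.75%, were at 0, against 3.00% in the mirrored flank and 3.21% in the table. They lay at -479, -453, -452, -449, -431, -330, -202, -191, -190, -132 and -131 kb. The 72 windows of 10 kb that hold a whole one had a median signal of 0.102. The other 328, some of which overlap one in part, had 0.113. Of the 6 minima, those at -447 and -479 kb each hold 1 such 2 kb window and that at -194 kb holds 2, while the maxima at -127 and -332 kb hold 1 each. Whether a window at 0 was measured as 0 or held no value was not settled, and its part in the troughs was not tested. Without the 10 kb windows that hold a whole one, the difference between the flanks at 400 to 500 kb was -0.18. Those at 200 to 300 and 300 to 400 kb turned from 0.05 and 0.08 to -0.01 and -0.02. The lowest window then lay at -442 kb.

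The lower flank was more uneven than the mirrored one. The SD of the log2 signal over its 400 positions was larger at all 48 window sizes, by 1.05- to 1.34-fold. At 10 kb it was 0.325 against 0.287, and at 40 kb 0.158 against 0.125. Over the whole table the SD was 0.334 at 10 kb and 0.171 at 40 kb. At these sizes the lower flank was therefore no more uneven than the table. Window sizes are not independent of each other, and in sets of 40 windows of 10 kb that do not overlap the lower flank had the larger SD at 7 of 10 offsets (0.28 to 0.38 against 0.26 to 0.32). Inside single 10 kb windows, the authors' spread had a median of 2.35 log2 in the lower and 2.28 in the mirrored flank over 400 positions. Over 40 windows 10 kb apart the order turned, with medians of 2.25 and 2.31. At the 8 maxima the spread ran from 1.57 to 2.78 and at the 6 minima from 2.15 to 2.59. Across 40 windows 10 kb apart in the lower flank, spread and level had a Spearman correlation of -0.0884, as a description of windows of 1 library.

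**Figure D5:**
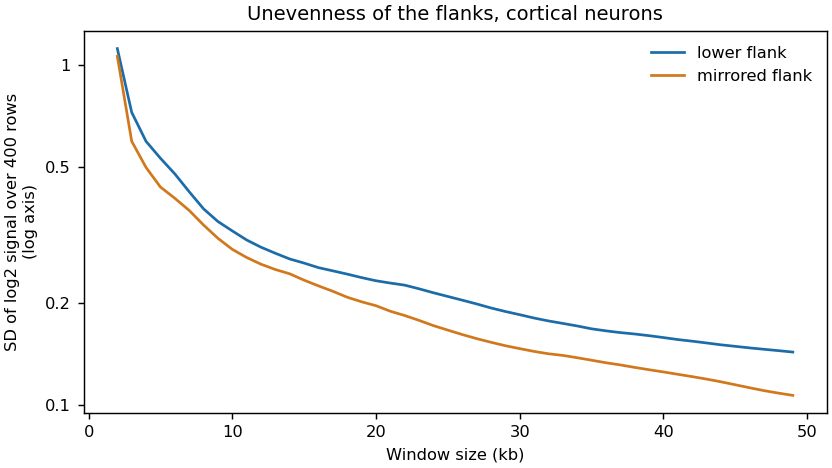
SD of the log2 signal over the 400 positions of each flank (y axis, log axis) against window size in kb (x axis). The line of the lower flank (blue) lies above that of the mirrored flank (orange) at every size, 0.33 against 0.29 at 10 kb and 0.16 against 0.13 at 40 kb.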

How the data were processed

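The authors deposited 1 table of contact signal per library, with rows spaced by 1 kb in mm9 coordinates (build per the submitters' processing notes). The sources used here name no aligner, counting step or program. Each position has a central value and 2 bounds for 48 window sizes, read from the missing values at the table's ends as 2 to 49 kb. The deposited signal was read as a mean of logs, taken after adding a constant (0.00569) and turned back to a linear scale. The constant was solved from the symmetry of the bounds on that log scale. A 10 kb window reaches 5 kb to each side of its position. Log2 values were taken after adding that constant. Distances are from the midpoint of the table, 86814834, taken as the viewpoint. Depth is unknown, since the tables hold no read numbers, so no interval or detection limit is given.

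Maxima were taken by falling 10 kb signal at least 20 kb apart (8 named, 6 minima, 3 of each in the mirrored flank), and genes in RefSeq order. Runs allow gaps of up to 2 positions. The members, lists and comparisons were chosen with earlier results of these data known, and the steps, widest windows and bins after seeing the values. Alternatives were other windows, log scale, median, limits, rows 10 kb apart, margin and spacing. Leaving out windows at 0 or the lowest stretch was added after seeing the data. The code was tested on simulated data (Python 3.11.15, numpy 2.4.6, scipy 1.17.1, matplotlib 3.10.9).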

Additional observations from a re-analysis of the deposited data

How the results depend on the processing

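Of 97 values under 12 alternatives, 76 moved by less than the yardstick (1 SD over the 4 segment differences, 0.17 log2, for differences, 1 SD over windows 10 kb apart, 0.38, for the level, 1.5 times for counts, 10 kb for places). Some of the 76 could not move. Without the constant, the ranking of maxima and minima by signal is the same. A spacing of 10 kb cannot change the highest or lowest window, and leaving out the lowest stretch cannot change the first 3 segments. Lower minus mirrored stayed between -0.07 and -0.03, and nearer minus farther between 0.08 and 0.13. At 400 to 500 kb the difference stayed below 0, from -0.35 to -0.18. Those of the first 3 segments, all under the yardstick, turned sign in 6 cases and ranged from -0.06 to 0.09. The yardstick for differences comes from the same 4 segment differences, so a difference under it could turn sign without counting as moved.

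Counts of high and low positions are given with the flank's share against the table's share. In 5 kb windows 47 were high (11.8% against 12.6%) and 74 low (18.5% against 17.4%), in 20 kb windows 4 high (1.0% against 1.26%) and 4 low (1.0% against 2.98%), and in 40 kb windows 0 high (0% against 0%) and 0 low (0% against 0.663%). At a margin of 0.3 log2, 68 were high (17% against 16.8%) and 65 low (16.2% against 19.1%). Of 40 rows 10 kb apart 4 were high (10.0% against 5.53%) and 4 low (10.0% against 11.1%). Of 328 windows that hold no whole 2 kb window at 0, 17 were high (5.18% against 4.19%) and 12 low (3.66% against 6.66%). With limits of 150 and 450 kb 17 were high (5.67% against 5.37%). Fewer rows and the averaging of wider windows lower these counts by construction.

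The highest window lay at -127 kb in 5 kb, -135 kb in 20 kb and -145 kb in 40 kb windows, and the lowest at -120 kb in 5 kb and -436 kb in 40 kb windows. In 40 kb windows 3 of 8 maxima and 2 of 6 minima were found again within 10 kb, and with a spacing of 10 kb 5 of 8 maxima. The cause was not tested. No paired analysis was possible because each group has 1 library and the labels give no replicate numbers. Unknown depth limits every value.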

Other observations

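In the table, 7 windows of 2 kb had a signal above 0 and both bounds at 0, and 2 of them lay in the lower flank. That at -454 kb had a signal of 0.0465, and that at -320 kb 0.148. All 5 such windows outside the flank also had 0.0465. Why both bounds were 0 in these windows was not tested. The window at -454 kb adjoins the zeros at -453 and -452 kb in the trough around -447 kb. In 10 kb windows these positions had 0.0883 and 0.114.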
